A study of Mus musculus with 4 samples.

Results

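Naive T cells are resting lymphocytes that have left the thymus and have not yet met antigen. Their state is held by a small set of transcription factors, among them TCF-1 (encoded by *Tcf7*), LEF1, BACH2, FOXO1 and FOXP1, which keep the cells quiescent, recirculating and able to survive. *Dapl1*, *Igfbp4* and *Actn1* are transcripts that are abundant in naive cells and decline once the cells are activated, and they serve as markers of that state. The 8 genes were chosen by name, as 5 regulators and 3 markers, and each was matched on its symbol in the count tables of splenic CD4+ T cells. All 8 were found among 55367 gene symbols, and all 8 passed the low-count filter that left 12403 genes for testing.

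The libraries came from peripheral CD4+ T cells sorted from spleens of C57BL/6 mice, with 2 wild-type (WT) libraries and 2 that carry the label of a *Satb1* conditional knockout (cKO). In the cKO mice, floxed *Satb1* alleles (Satb1 F/F) are cut by Cre recombinase under the control of *Thpok*, which acts from CD4 lineage commitment in the thymus onward, so that SATB1, a nuclear protein that organises chromatin, is lost from the whole CD4+ compartment, regulatory T (Treg) cells included. The driver is taken from the study's methods, since the label of a library does not name it. No treatment was given, each library is bulk RNA of CD4+ T cells not split by naive or activated state in the labels, and these give neither the age nor the sex of a mouse, nor whether the WT mice carried floxed alleles or Cre. The comparison asks whether the naive programme differs between the genotypes when SATB1 is lost after commitment.

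Libraries held between 4495902 and 6555699 gene counts. Levels are given in CPM, counts per 1000000 counts of the tested genes with library sizes scaled by TMM factors, while sums over markers use total gene counts. *Satb1* itself had 868 and 984 CPM in the WT libraries against 945 and 847 CPM in the libraries labelled cKO. This was a log2 fold change of -0.05 with a 95% interval from -0.32 to 0.23. The gene-level count thus does not separate the genotypes, and directions below follow the labels. Sex-linked transcripts split with the labels: *Xist* had 5447 and 4235 counts in WT and 9 and 6 in cKO, whereas *Ddx3y* on chromosome Y had 0 in both WT libraries and 525 and 597 in cKO. Sex and genotype therefore cannot be told apart for any gene below. T cell markers were present in each library, with a sum over 9 genes (*Cd3e*, *Cd4* and *Lck* among them) of 6350 to 6705 CPM, and of the 9 only *Thy1* was called, lower in cKO.

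The 250 bases upstream of the annotated start are shown for the pair of markers with the largest differences between genotypes, as RefSeq gives them on GRCm38.p6, the assembly also called mm10, on the strand of the gene. *Dapl1* (plus strand) lies at chr2:59484403-59484652 and *Igfbp4* (plus strand) at chr11:99040994-99041243. Capitals mark a match to the forkhead motif TGTTTAC on either strand.
Dapl1: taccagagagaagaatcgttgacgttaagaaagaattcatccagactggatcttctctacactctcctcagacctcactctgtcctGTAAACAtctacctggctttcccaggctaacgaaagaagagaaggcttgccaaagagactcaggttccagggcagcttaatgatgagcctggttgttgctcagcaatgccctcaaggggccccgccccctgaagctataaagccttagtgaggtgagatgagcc
Igfbp4: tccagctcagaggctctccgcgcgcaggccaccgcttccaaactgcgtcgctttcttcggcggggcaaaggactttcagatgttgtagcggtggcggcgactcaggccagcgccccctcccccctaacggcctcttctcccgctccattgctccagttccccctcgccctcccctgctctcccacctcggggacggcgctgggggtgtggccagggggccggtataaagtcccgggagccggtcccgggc
The *Dapl1* window held 1 match to the forkhead motif, beginning 164 bases before the start. Over the 14 windows that the table holds for the 8 genes, it was the 1 match to any of 3 motifs searched on both strands, the others being CTTTGAT (TCF and LEF factors) and TGANTCA (AP-1 and BACH factors). Among 32851 promoter windows of the same length, 3.17% held the forkhead motif, 3.21% the TCF motif and 6.75% the AP-1 motif. A match describes letters and is no evidence of binding. The windows differed in base composition: *Igfbp4* was 69.2% G and C with 22 CpG dinucleotides, and *Actn1* 68.4% with 18, whereas *Dapl1* was 50.0% with 4, against medians of 52.4% and 6 over all windows.

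*Dapl1* was the single gene of the 8 that differed between the genotypes beyond the threshold, and the difference was large. It was down-regulated 5.26-fold in the libraries labelled cKO, while none of the 5 transcription factors passed the test. A gene was called where edgeR's quasi-likelihood test gave an adjusted p under 0.05, and of the 8 genes 1 was called, lower in cKO. Over all genes tested 4.30% were called, and 1.95% were called lower in cKO. At an unadjusted p under 0.05 there were 3 of the 8 genes, *Dapl1*, *Igfbp4* and *Actn1*, which are the 3 markers, against 19.1% of all genes tested. CPM did not overlap between the genotypes for 6 of the 8 genes, with 5 lower and 1 higher in cKO, whereas 50.3% of all genes tested did not overlap and 25.4% lay entirely lower in cKO. The median log2 fold change of the 8 genes was -0.24, against -0.0015 over all genes tested.

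**Figure D1:**
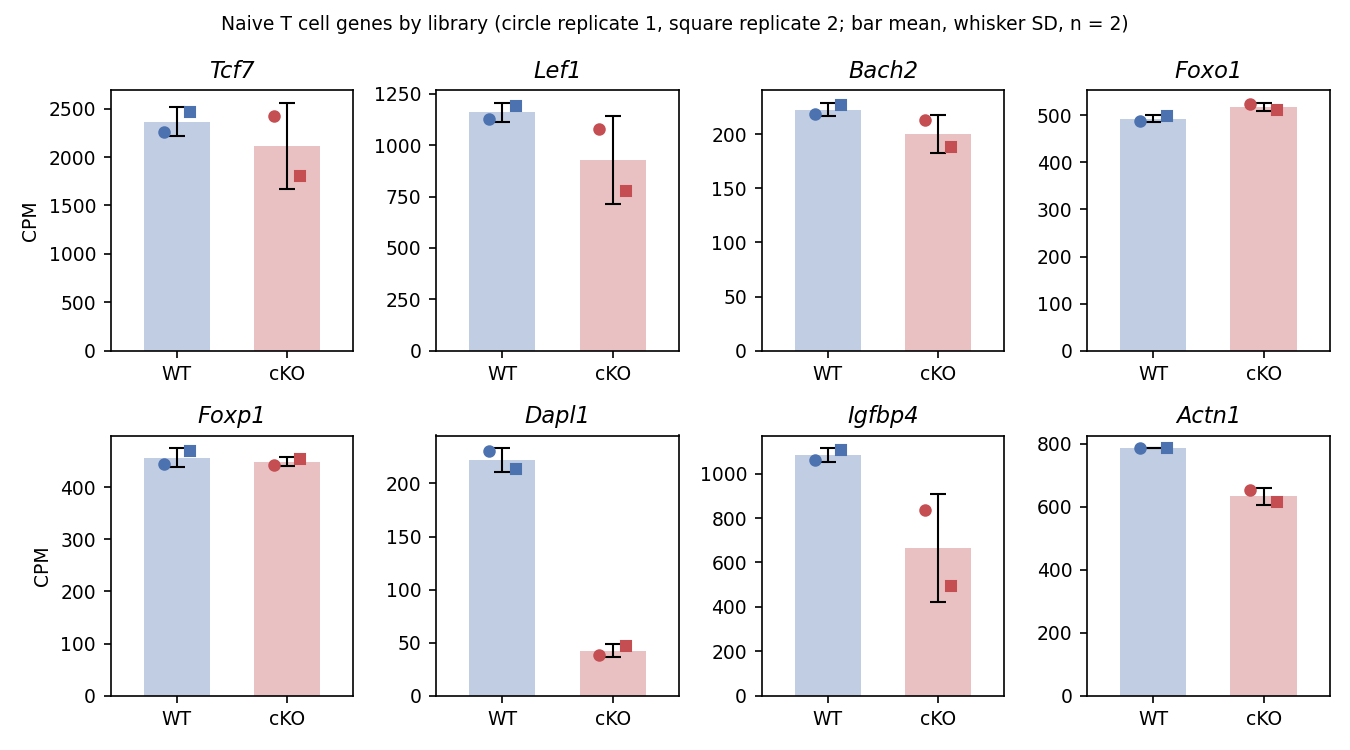
Expression of the 8 naive T cell genes in CPM on a linear axis from 0 (each panel has its own scale), with circles for replicate 1 and squares for replicate 2, bars for the mean and whiskers for the SD (n = 2). *Dapl1* lay at 214 and 230.2 CPM in WT and at 37.9 and 46.8 CPM in cKO; *Tcf7*, *Lef1* and *Igfbp4* show a wide gap between the cKO libraries.

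*Dapl1* encodes a small protein related to death-associated protein (DAP). Its position on GRCm38 is chromosome 2, 59484653 to 59505020 (plus strand), with 5 exonic blocks of 679 bases in all, and no annotated exon of another gene overlaps it. It had 1505 counts in WT 1 and 955 in WT 2, but 199 in cKO 1 and 220 in cKO 2. On the CPM scale this was 222 ± 11.5 (SD, n = 2) in WT and 42.3 ± 6.25 (SD, n = 2) in cKO. Both cKO libraries were thus far below both WT libraries, and the gap exceeded the spread within either genotype. Its log2 fold change was -2.39 (SE 0.13, edgeR adjusted p = 4.76e-05), which is a level 5.26-fold lower in cKO (95% interval 4.30 to 6.43). By p-value *Dapl1* ranked 6 among all 12403 genes, and by fold change 41 called genes had a lower value. A fall in bulk RNA cannot be assigned to fewer cells that express a gene or to less RNA per cell. The sum over 8 Treg markers was 413 and 494 CPM in WT and 870 and 1132 CPM in cKO, with 5 of 8 called higher and none at 0 in any library. Much of the rise in this sum was *Foxp3* itself, at 121 and 142 CPM in WT and 405 and 547 CPM in cKO. *Il2ra*, *Ikzf2* and *Ikzf4* were not called, and *Ikzf2* overlapped between the genotypes. Of the 2 CD8 markers, summed at 47.6 and 58.1 CPM in WT and 33.5 and 27.2 CPM in cKO, *Cd8b1* was called lower (log2 fold change -0.91, edgeR adjusted p = 0.0201) and *Cd8a* was not (-0.07, adjusted p = 0.941). The part of either in the fall of *Dapl1* was not tested.

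The genes whose pattern over the 4 libraries was most like that of *Dapl1*, by Euclidean distance of centred log2 CPM, were *Jaml* at 0.27, and *Ndufs5-ps* and *Gm11738*, tied at 0.34 with identical counts. *Jaml*, which encodes an adhesion molecule of the junctional family, had 29.8 and 22.9 CPM in WT and 5.14 and 6.16 CPM in cKO, a log2 fold change of -2.23 (SE 0.24, edgeR adjusted p = 0.00196). The tied pair had 16 and 12 counts in WT and 2 in each cKO library, too few for a firm fold. With 4 libraries, this likeness is largely a shared step between the genotypes.

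*Igfbp4* encodes a secreted protein that binds insulin-like growth factors. The gene spans bases 99041244 to 99054392 of chromosome 11 (plus strand) with 8 exonic blocks. Expression was 1064 and 1107 CPM in WT, 836 CPM in cKO 1 and 494 CPM in cKO 2. Both cKO libraries lay below WT, but they differed from each other by 1.69-fold, so that the cKO mean of 665 ± 242 CPM (SD, n = 2) stood against 1086 ± 30.8 CPM (SD, n = 2) in WT. A log2 fold change of -0.71 (SE 0.21) did not pass the threshold, with an edgeR adjusted p = 0.107. Its 95% interval ran from a level 1.17-fold to 2.27-fold lower in cKO. With the replicate number as a block the value was -0.75 and was called, with an adjusted p = 0.00330, in a range from 2.24e-09 to 0.483 over all alternatives. Without cKO 1 the log2 fold change was -1.14 and without cKO 2 it was -0.37, and in these fits the adjusted p was 5.27e-08 and 0.00204. Without WT 1 or WT 2 it was not called, at -0.73 (adjusted p = 0.0542) and -0.68 (adjusted p = 0.401).

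*Actn1* encodes alpha-actinin 1, a protein that crosslinks actin filaments. The gene spans bases 80167547 to 80260371 of chromosome 12 (minus strand) with 24 exonic blocks. The WT libraries were almost equal, at 786.2 and 786.0 CPM, and the cKO libraries lay lower, at 652 and 614 CPM. The cKO libraries were close to each other, and neither reached the WT level. For *Actn1* the log2 fold change was -0.31 (SE 0.10, 95% interval -0.55 to -0.07), with an edgeR adjusted p = 0.147. Leaving out either cKO library gave a call, at 0.00575 without cKO 1 and 0.0282 without cKO 2, and leaving out a WT library did not, at 0.652 without WT 1 and 0.693 without WT 2. Part of its exonic sequence, 451 bases, overlaps *Gm47767* and *Gm47766* on the opposite strand, where *Gm47767* had 497 and 350 counts in WT and 305 and 298 in cKO, and *Gm47766* 215 and 161 in WT and 101 and 100 in cKO, not scaled for depth. Without a stated strand setting, reads of such partners cannot be told apart from those of the gene.

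Among the transcription factors, *Tcf7* and *Lef1* encode closely related high mobility group factors that act together in T cell development and can recruit beta-catenin or Groucho/TLE corepressors. *Tcf7* spans bases 52252371 to 52283014 of chromosome 11 (minus strand) and *Lef1* bases 131110471 to 131224356 of chromosome 3 (plus strand). *Tcf7* was at 2263 and 2469 CPM in WT, at 2429 CPM in cKO 1 and at 1800 CPM in cKO 2. The cKO 1 value thus lay between the WT libraries, and the lower cKO mean came from cKO 2 alone. The log2 fold change was -0.16 (SE 0.17, 95% interval -0.54 to 0.21; edgeR adjusted p = 0.655). It was 0.04 without cKO 2, a change of sign, and -0.40 without cKO 1, where it was called with an adjusted p = 0.00470, in a range up to 0.965 over the alternatives.

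*Lef1* was also lowest in cKO 2, at 1127 and 1193 CPM in WT, 1078 CPM in cKO 1 and 776 CPM in cKO 2. Both cKO values were below WT, with cKO 1 close to it. The log2 fold change was -0.32 (SE 0.16, 95% interval -0.68 to 0.04; edgeR adjusted p = 0.315). It was -0.58 without cKO 1, with an adjusted p = 0.000113, and it was -0.10 without cKO 2, with an adjusted p = 0.499. The range over the alternatives ran up to 0.816. On a scale of CPM per kilobase of exon, *Tcf7* exceeded *Lef1* by 6.72-fold and 6.93-fold in the WT libraries and by 7.54-fold and 7.76-fold in cKO. In *Lef1*, 1208 exonic bases overlap *Gm43352* on the opposite strand, a gene with no row of its own in the tables.

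*Bach2* encodes a transcriptional repressor that restrains effector genes, *Prdm1* among them. The gene spans bases 32238804 to 32586108 of chromosome 4 (plus strand). Expression was 218 and 227 CPM in WT and 213 and 188 CPM in cKO. The groups did not overlap, but cKO 1 and WT 1 were close. For *Bach2* the log2 fold change was -0.15 (SE 0.10, 95% interval -0.38 to 0.08; edgeR adjusted p = 0.472). It was -0.25 without cKO 1 (adjusted p = 0.0864) and -0.06 without cKO 2. Its antisense neighbour *Bach2os*, which shares 537 exonic bases, had 164 and 114 counts in WT and 112 and 103 in cKO.

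*Foxo1* and *Foxp1* encode forkhead factors. FOXO1 sustains expression of homing and survival receptors in naive T cells, and FOXP1 enforces quiescence. *Foxo1* (chromosome 3, 52268336 to 52353221, plus strand) was at 488 and 498 CPM in WT and at 524 and 511 CPM in cKO. It was the single naive gene of the 8 whose cKO libraries both lay above WT, by little. Its log2 fold change was 0.07 (SE 0.10; edgeR adjusted p = 0.756), and the interval of the cKO to WT ratio ran from 0.899 to 1.23. Here 674 exonic bases overlap *Gm20402* on the opposite strand, with 340 and 324 counts in WT and 262 and 348 in cKO. *Foxp1* (chromosome 6, 98925338 to 99522721, minus strand) was at 444 and 470.1 CPM in WT and at 443 and 455 CPM in cKO, so that the groups overlapped. The log2 fold change was -0.02 (SE 0.10; edgeR adjusted p = 0.924), with a ratio interval from 0.841 to 1.15. It was 0.01 without WT 2, so no direction holds for it. These intervals leave room for modest differences, but not for one of the size seen for *Dapl1*.

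**Figure D2:**
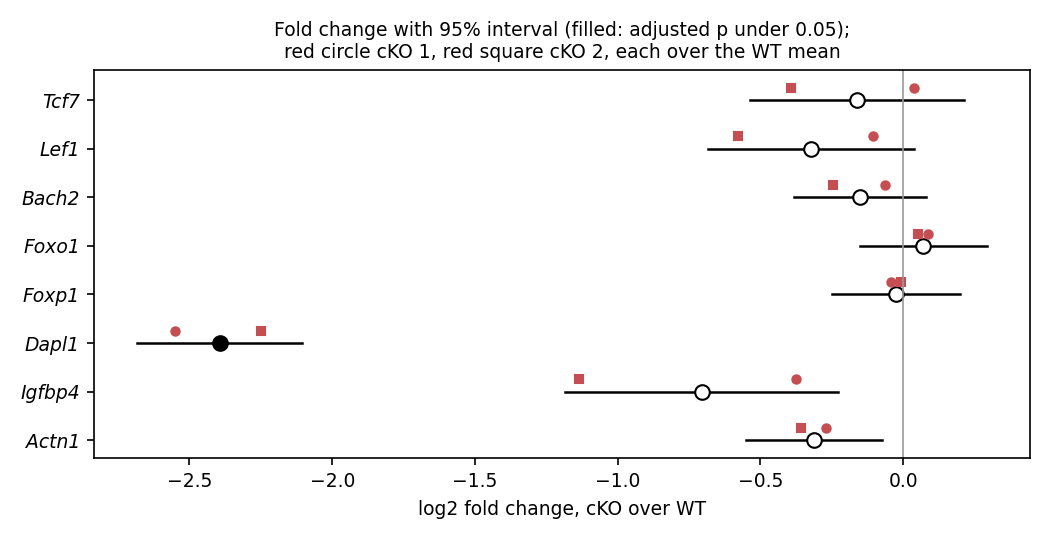
Log2 fold change (cKO over WT) of the 8 genes from the edgeR fit with its 95% interval; a filled circle marks an adjusted p under 0.05, and red points show each cKO library over the WT mean. *Dapl1* stands at -2.39, the other genes lie between -0.71 and 0.07, and the cKO libraries are widest apart for *Igfbp4*.

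The WT libraries differed by at most 1.09-fold for any of the 8 genes. The cKO libraries differed by 1.69-fold for *Igfbp4*, 1.39-fold for *Lef1*, 1.35-fold for *Tcf7* and 1.23-fold for *Dapl1*, and by 1.03-fold or less for *Foxo1* and *Foxp1*. For 6 of the 8 genes cKO 2 was the lower of the cKO libraries, the exceptions being *Dapl1* and *Foxp1*. Other measures also differed between the cKO libraries. Reads that the counting gave to no feature made up 59.4% of uniquely aligned reads in cKO 1 and 64.5% in cKO 2, with 60.8% and 62.1% in WT. B cell markers, summed over 9 genes, stood at 39.7 and 46.7 CPM in WT, 191 CPM in cKO 1 and 78.9 CPM in cKO 2, with 2 of 5 tested genes called higher in cKO and *Ebf1* at 0 in cKO 2. Myeloid markers, summed over 10 genes, stood at 34.5 and 42.9 CPM in WT, 109 CPM in cKO 1 and 66.3 CPM in cKO 2, with 4 of 9 tested genes called higher in cKO and *S100a8*, *S100a9* and *Ltf* at 0 in WT 1. Erythroid transcripts, summed over 5 genes, ranged from 9.87 CPM in cKO 1 to 306 CPM in WT 2. The part of any of these in the levels of the 8 genes was not tested.

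**Figure D3:**
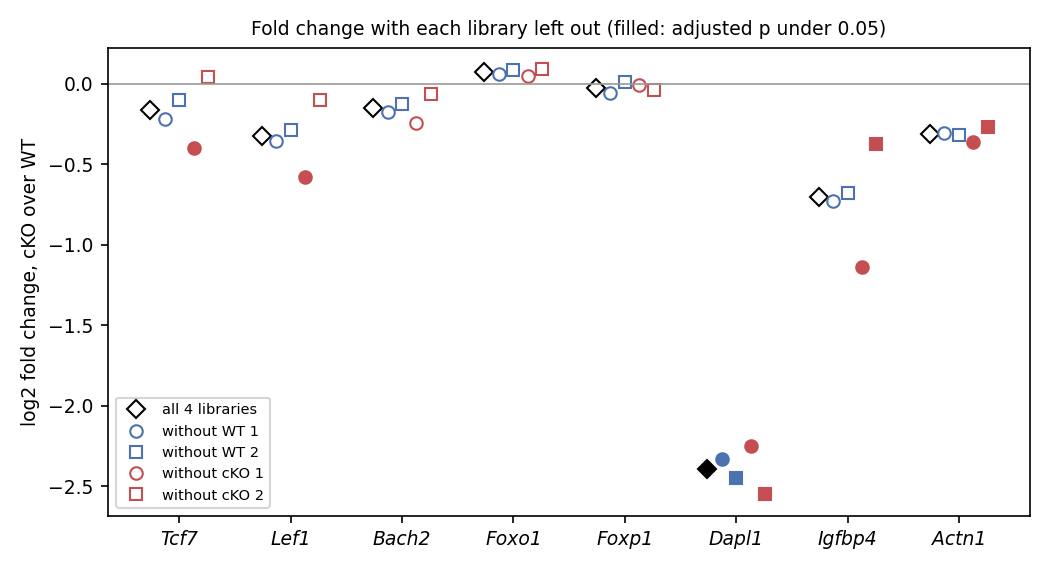
Log2 fold change (cKO over WT) of the 8 genes with all 4 libraries (diamond) and with 1 library left out (blue for WT, red for cKO; circle replicate 1, square replicate 2); filled symbols have an adjusted p under 0.05. *Dapl1* stays between -2.55 and -2.25, whereas *Igfbp4* ranges from -1.14 to -0.37 and *Tcf7* from -0.40 to 0.04.

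The order of the levels was compared on CPM per kilobase of exonic sequence, which sets genes of different length on 1 scale. In WT the order from the top was *Tcf7* at 901, *Dapl1* at 327, *Igfbp4* at 246, *Actn1* at 142, *Lef1* at 132, *Foxo1* at 56.9, *Foxp1* at 33.2 and *Bach2* at 22.4. No neighbours in this order had overlapping ranges over the WT libraries. In cKO, *Dapl1* moved to 62.4, below *Lef1* at 105, and its range overlapped that of *Foxo1* at 59.7. The ranges of *Igfbp4*, *Actn1* and *Lef1* also overlapped from each to the next in cKO. These values use the whole annotated exonic length, so the level of a gene is set too low where the cells use shorter isoforms, which was not measured here.

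Other genes associated with the naive state did not move as a block with *Dapl1*. Of 20 such genes, 6 were called, 4 lower and 2 higher in cKO, and the median log2 fold change was -0.04. The lists of other genes described here were drawn up with earlier results of these data known, and their counts are read against the 4.30% called over all genes. The homing receptor *Ccr7*, a FOXO1 target, fell from 553 and 604 CPM to 403 and 349 CPM (log2 fold change -0.62, SE 0.11, edgeR adjusted p = 0.0199). *Il7r*, the receptor chain for the survival cytokine IL-7 and also a FOXO1 target, rose from 365 and 486 CPM to 1052 and 697 CPM (log2 fold change 1.04, SE 0.20, adjusted p = 0.0257), and DESeq2 gave the same log2 fold change of 1.04 without a call (adjusted p = 0.0760). *Klf2*, a factor of quiescence and egress, was at 472 and 528 CPM in WT and 531 and 519 CPM in cKO (log2 fold change 0.07, edgeR adjusted p = 0.770). The kinase gene *Txk* (-0.59), *Rapgef4* (-0.74), which encodes a cyclic AMP sensor and overlaps the antisense *Rapgef4os2*, and the SLAM receptor gene *Slamf6* (-0.44) were also called lower, with edgeR adjusted p of 0.0258, 0.0219 and 0.0412, and *Id3*, an inhibitor of E proteins, was called higher (0.84, adjusted p = 0.00511). Without WT 2, *Ccr7* (-0.56), *Rapgef4* (-0.62), *Txk* (-0.54), *Slamf6* (-0.45) and *Id3* (0.83) kept their direction but lost their calls. *Il7r* (1.26) kept its call. Fewer genes of this list were called without WT 2 and more without either cKO library, and the same held over all genes tested. Without WT 1, *Slamf6* lost its call (adjusted p = 0.274) and the other 5 kept theirs.

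Of 25 tested genes of activated or memory T cells, 9 were called, 7 lower and 2 higher, and the median log2 fold change was -0.25. The cytotoxicity and effector genes *Gzmk* (-1.75), *Nkg7* (-1.61), *Ccl5* (-1.38) and *Tbx21* (-1.05), *S100a6* (-1.24) and the galectin genes *Lgals3* (-1.24) and *Lgals1* (-1.03) were called lower, with edgeR adjusted p between 0.0117 and 0.0494. The call of *Tbx21* was lost in DESeq2 (adjusted p = 0.0582), without TMM (0.0534), on autosomes alone (0.0524) and without WT 1 (0.158) or WT 2 (0.0932), and that of *Lgals3* in DESeq2 (0.11) and without WT 1 (0.130) or WT 2 (0.174). *Pdcd1* (0.89, adjusted p = 0.0113), which encodes the inhibitory receptor PD-1, and *Tnfrsf4* (0.75, adjusted p = 0.0264), which encodes OX40, were called higher. Natural killer markers, summed over 4 genes, stood at 46.8 and 36.7 CPM in WT and 14.5 and 18.6 CPM in cKO. *Eomes* made up most of this sum, at 39.8 and 32.3 CPM in WT and 11.1 and 17.0 CPM in cKO, and was called lower. *Klrk1* (edgeR adjusted p = 0.0904) and *Klrb1c* (0.437) were not called. *Ncr1*, at 0 in WT 2 and cKO 2, had too few reads to be tested. The part of such cells in these differences was not tested. *Prdm1*, repressed by BACH2, was at 12.4 and 10.3 CPM in WT and at 15.8 and 11.7 CPM in cKO (log2 fold change 0.27, edgeR adjusted p = 0.601), and its log2 fold change ran from 0.025 without cKO 1 to 0.46 without cKO 2. Without WT 2, *Pdcd1*, *Tnfrsf4*, *Gzmk* and *Lgals1* also lost their calls, and no gene of the list was called higher. The log2 fold changes of *Pdcd1*, *Gzmk* and *Lgals1* were then 0.81, -1.80 and -1.05. Fewer genes of the list were called without WT 2 and more without either cKO library, as over all genes tested.

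Of 16 tested genes that work with TCF-1 and LEF1, 1 was called, and the log2 fold changes ran from -1.70 to 1.66 with a median of 0.04. At an unadjusted p under 0.05 there were 4 of the 16, against 19.1% of all genes. The ends of the range were genes of few reads, *Ctnnbip1*, an inhibitor of beta-catenin, at 2.75 and 4.03 CPM in WT and 1.14 and 0.850 CPM in cKO, and *Tcf7l2*, a relative of *Tcf7*, at 1.07 and 1.12 CPM in WT and 4.0 and 2.98 CPM in cKO, with edgeR adjusted p of 0.0939 and 0.0816. *Tle1*, a corepressor gene, had a log2 fold change of 0.94 (adjusted p = 0.129). *Axin2*, a feedback inhibitor and common readout of beta-catenin signalling whose exons overlap *Gm11670* on the opposite strand, rose from 93.1 and 85.8 CPM to 129.8 and 119.9 CPM (log2 fold change 0.48, SE 0.11, edgeR adjusted p = 0.0438). Its call was lost without either WT library, and in DESeq2, where no gene of the list was called; its adjusted p ranged from 0.000527 to 0.423 over the alternatives. *Ctnnb1*, which encodes beta-catenin, was at 360 and 358 CPM in WT and at 387 and 354 CPM in cKO (log2 fold change 0.05, adjusted p = 0.847).

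Of 13 tested genes around FOXO, FOXP and BACH factors, 2 were called, and the median log2 fold change was 0.18. *Foxp3*, the lineage factor of Treg cells and a relative of *Foxp1*, rose from 142 and 121 CPM to 405 and 547 CPM (log2 fold change 1.86, edgeR adjusted p = 0.000447). It is X-linked, and its exons overlap those of *Ccdc22* on the opposite strand. *Pdk1* fell from 263 and 313 CPM to 146 and 122 CPM (log2 fold change -1.10, SE 0.13, adjusted p = 0.00286). By this symbol it is the mitochondrial pyruvate dehydrogenase kinase, not the kinase of the same abbreviation that activates AKT upstream of FOXO1. Its place in this list, and in the count of called genes, rests on that shared abbreviation. *Foxo3*, *Foxo4*, *Foxp4* and *Bach1*, relatives of the regulators, had log2 fold changes of 0.31, 0.21, 0.18 and 0.18, and none was called, though *Foxo3* was without cKO 2. *Sgk1*, a kinase that phosphorylates FOXO factors, was at 155 and 112 CPM in WT and 102 and 57.2 CPM in cKO (log2 fold change -0.75, SE 0.25, adjusted p = 0.139), and it was called with the replicate block, without the low-count filter and without either cKO library.

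Of 10 relatives of the marker genes, 3 passed the low-count filter, and none was called in the edgeR test, with 1, *Actn2*, at an unadjusted p under 0.05, a level that 19.1% of all genes reached. DESeq2 and limma called none of them either. *Actn4*, the other broadly expressed alpha-actinin, was at 442 and 417 CPM in WT and at 452 and 444 CPM in cKO, and *Dap*, the relative of *Dapl1*, at 86.0 and 78.6 CPM in WT and at 131 and 85.0 CPM in cKO. The muscle-type *Actn2* was low, at 8.41 and 5.60 CPM in WT and 2.29 and 3.61 CPM in cKO. No other *Igfbp* gene passed the filter, so *Igfbp4* was the member of its family measured at a testable level.

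**Figure D4:**
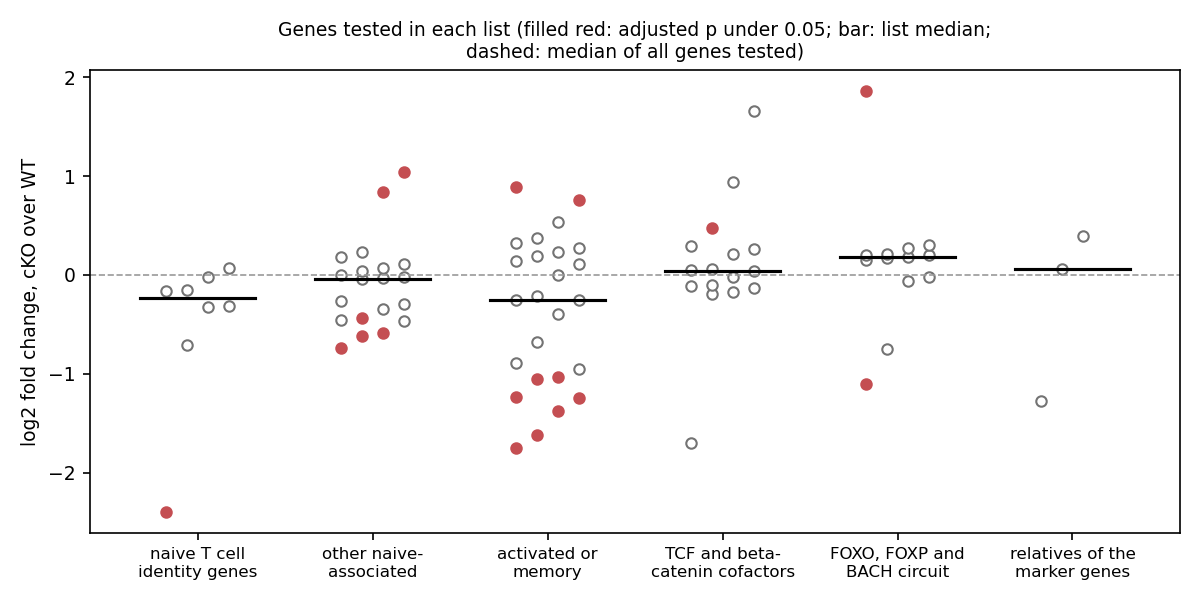
Log2 fold change (cKO over WT) of each tested gene in the 8 naive T cell genes and the 5 other lists; filled red points have an adjusted p under 0.05, bars are list medians and the dashed line is the median of all genes tested. *Dapl1* at -2.39 is the lowest point, and called genes lie on both sides of 0 among the other naive-associated and the activated or memory genes.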

How the data were processed

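The authors aligned reads to mm10 with HISAT2 (2.1.0 in the submitters' processing notes), counted them per gene symbol with HTSeq (0.11.1 in those notes), and deposited raw counts of 4 libraries. The strand setting and the gene annotation are not given in the sources used here. HTSeq summary lines stayed out of library sizes. Reads given to no feature were 59.4% to 64.5% of uniquely aligned reads. Without the strand setting, it is not known whether these include reads opposite to annotated exons. Depth was 4495902 to 6555699 gene counts.

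Positions and exonic lengths came from GENCODE M21 (GRCm38), and *Aes* was read as *Tle5* by RefSeq synonyms. Genes were kept by filterByExpr in edgeR 4.0.16 (R 4.3.3), scaled by TMM, tested by the two-sided quasi-likelihood F test on genotype with Benjamini-Hochberg adjustment over 12403 genes, and called at an adjusted p under 0.05. CPM uses TMM-scaled library sizes; marker sums use total gene counts. The SE is the absolute log2 fold change over the square root of F. Intervals reflect counting noise and the difference between replicate libraries only, and no molecular identifiers mark duplicate reads. Per-gene permutation of 2 against 2 cannot give a p under 0.333. The study calls the replicates biological, while the labels do not say whether they came from separate mice, so p-values measure the spread between these libraries. Replicates differed by more than sampling noise (chi-square per degree of freedom 3.01 in WT and 7.28 in cKO).

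The procedure was run on simulated counts with a common dispersion for all genes and libraries. That setting does not cover the unequal spread of the WT and cKO libraries. DESeq2 1.42.0, limma 3.58.1, other scalings and filters, thinning, autosomes alone, a replicate block and omission of each library were tried. The genes named were the 8 members, called genes of the lists, *Ccr7*, *Il7r*, *Klf2*, *Prdm1*, *Foxp3*, *Ctnnb1* and *Satb1*, and the 3 genes most like a called member. *Thy1*, *Eomes* and *Cd8b1*, called among the cell type markers, *Ctnnbip1*, *Tcf7l2*, *Tle1*, *Sgk1*, *Foxo3*, *Foxo4*, *Foxp4*, *Bach1*, *Actn2*, *Actn4* and *Dap* were added after their values were seen. The same holds for *Klrk1*, *Klrb1c*, *Il2ra*, *Ikzf2* and *Ikzf4*, cell type markers that were not called. Members and lists were chosen with earlier results of these data known, and 1 gene was left out of the lists and is not reported here.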

Additional observations from a re-analysis of the deposited data

How the results depend on the processing

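*Dapl1* was called in each of the 13 alternatives, with a log2 fold change between -2.55 and -2.25. For the 8 genes, 92 of 104 alternative values kept direction and side of the threshold. Of genes tested, 533 were called, against 1367 without a low-count filter and 1165 with the replicate block, and between 180 and 1790 with a library left out; limma gave 483 and DESeq2 427. Without the filter, 4 of the 8 naive genes were called, with *Lef1* at -0.33, *Igfbp4* at -0.71 and *Actn1* at -0.32 on the log2 scale. Same-numbered libraries deviated with a correlation of 0.0642 across genes. A value over all genes cannot decide whether the numbers are a pairing, and the labels do not say. With the replicate block 2 of the 8 genes were called, with *Igfbp4* at -0.75. With a library left out, between 1 and 5 of the 8 were called, and log2 fold changes ran from -0.40 to 0.040 for *Tcf7*, -0.58 to -0.10 for *Lef1*, -0.25 to -0.06 for *Bach2*, -0.060 to 0.013 for *Foxp1*, -1.14 to -0.37 for *Igfbp4* and -0.36 to -0.27 for *Actn1*. A lone library is assumed in these fits to vary like the others. Among other genes the sign turned for *Klf2* (-0.0016 to 0.15), *Ctnnb1* (-0.023 to 0.11) and *Satb1* (-0.13 to 0.042).

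With a library left out, counts of called genes ran from 1 to 11 for the other naive-associated genes, 4 to 17 for activated or memory genes, 0 to 3 for TCF cofactors, 2 to 4 for the FOXO, FOXP and BACH genes and 0 to 2 for the marker relatives. Without the filter they were 14 activated or memory genes, 4 TCF cofactors and 1 marker relative, with the replicate block 14, 3 and 1. DESeq2 called 0 TCF cofactors, and autosomes alone left 1 FOXO, FOXP and BACH gene, since *Foxp3* is X-linked. The cause of the other shifts was not tested. With all 4 libraries, the 95% intervals of *Tcf7*, *Lef1*, *Bach2*, *Foxo1* and *Foxp1* included 0.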
